A study of Mus musculus with 4 samples.

Results

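The genes described here encode the MHC class II antigen-presenting molecules and the proteins that load peptides onto MHC molecules. The list held 10 genes, named by their function: the class II chains H2-Aa, H2-Ab1 and H2-Eb1, the peptide exchange factor chains H2-DMa and H2-DMb1, the invariant chain Cd74, the class II transactivator Ciita, the class I light chain B2m and the peptide transporter chains Tap1 and Tap2. Of the 10 genes, 9 had a probe set annotated with that symbol alone, out of 22180 genes read in this way, and each of the 9 had 1 probe set. The probe set for Cd74 is annotated with a second gene as well, so Cd74 was given no value. Of the 9, H2-DMb1 lay below the filter on dim genes (a mean log2 value of 3.47, the 40th percentile), and 8 were among the 13308 genes that passed it.

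Liver RNA of 16-week-old C57Bl6 mice was hybridised to 4 Affymetrix arrays, 1 for each of 4 groups. The groups were ALB Cre MyD88 lox/lox mice on a high-fat diet with 60% fat (knockout, high-fat), MyD88 lox/lox mice on that diet (wild type, high-fat), ALB Cre MyD88 lox/lox mice on a control diet with 9.4% fat (knockout, control) and MyD88 lox/lox mice on the control diet (wild type, control). All 4 groups thus carry the floxed gene, and the Cre is driven by the albumin promoter, which is active in hepatocytes. Whether other liver cells of the knockout keep Myd88 was not measured here. Each array holds pooled RNA of 4 to 5 mice, so no group has a replicate and the spread between mice was not measured. The number of arrays limits the precision of every value below.

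MHC class II molecules present peptides from engulfed material to CD4 T cells. They are made mainly by dendritic cells, B cells and macrophages, and in liver also by sinusoidal endothelial cells; hepatocytes make little of them at rest. Transcription of class II genes depends on Ciita, which binds a set of factors assembled on the S, X and Y boxes of their promoters and can be induced by interferon gamma. MHC class I molecules are carried by nearly all nucleated cells, pair with B2m and receive cytosolic peptides through the Tap1 and Tap2 transporter. Mice with the C57BL/6 haplotype lack a functional class II E alpha chain, so H2-Eb1 has no partner for a surface E molecule in them.

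The promoters of 4 genes are shown because these genes differ in how they varied between the arrays: H2-Aa and H2-Eb1 are class II chains that varied together, Tap1 varied with them in its lowest and highest array, and B2m varied little. Each sequence is the gene's strand from RefSeq (build GRCm38.p6), from 250 bases before to 50 bases after the annotated start. Capitals mark matches on either strand to short cores of the Y box (GATTGG), the X box (GCAAC) and the X2 box (TGACG), and to the interferon-stimulated response element, searched as GAAA followed after 2 bases by another GAAA.
H2-Aa, chr17:34287774-34288073, minus strand: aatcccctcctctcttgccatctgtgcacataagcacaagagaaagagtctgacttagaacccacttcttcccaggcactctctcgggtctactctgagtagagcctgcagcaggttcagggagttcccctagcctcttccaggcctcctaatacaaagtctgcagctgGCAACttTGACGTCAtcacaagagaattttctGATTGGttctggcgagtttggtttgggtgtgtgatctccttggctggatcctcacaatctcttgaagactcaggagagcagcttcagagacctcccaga
H2-Eb1, chr17:34305617-34305916, plus strand: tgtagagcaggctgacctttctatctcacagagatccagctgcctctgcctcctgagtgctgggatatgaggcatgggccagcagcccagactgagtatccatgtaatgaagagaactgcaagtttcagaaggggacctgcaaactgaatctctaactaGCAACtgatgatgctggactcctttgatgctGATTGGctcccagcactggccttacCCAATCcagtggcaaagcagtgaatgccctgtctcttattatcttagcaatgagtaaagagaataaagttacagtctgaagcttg
Tap1, chr17:34187306-34187605, plus strand: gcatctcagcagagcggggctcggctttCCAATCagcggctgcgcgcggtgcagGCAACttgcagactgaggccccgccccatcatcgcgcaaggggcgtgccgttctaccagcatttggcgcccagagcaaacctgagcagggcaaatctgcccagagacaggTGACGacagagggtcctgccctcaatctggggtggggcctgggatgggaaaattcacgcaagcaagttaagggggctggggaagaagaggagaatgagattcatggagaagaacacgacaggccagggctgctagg
B2m, chr2:122147437-122147736, plus strand: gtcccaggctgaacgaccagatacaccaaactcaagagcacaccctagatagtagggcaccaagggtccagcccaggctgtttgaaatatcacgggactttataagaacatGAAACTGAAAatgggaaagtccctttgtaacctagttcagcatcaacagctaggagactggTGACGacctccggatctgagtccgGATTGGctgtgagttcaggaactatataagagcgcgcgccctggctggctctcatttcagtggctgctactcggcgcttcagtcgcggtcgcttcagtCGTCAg

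H2-Aa and H2-Eb1 share an arrangement that the rule for the list did not use: the X box core is followed by the Y box core on the same strand, 32 bases downstream in H2-Aa and 31 bases downstream in H2-Eb1, counted from start to start. Of all 32851 promoter windows in the table, 0.508% hold these cores 20 to 50 bases apart on either strand. Alone, the Y box core is found in 16.1% of windows, the X box core in 35.2%, the X2 box core in 20.8% and the response element in 3.44%, so single matches are common for all but the last. In H2-Aa the X2 box core matches on both strands at overlapping positions. Of the 6 listed genes with a window read here, B2m alone matched the response element, with its first base 139 bases before the start. No window was read for Cd74, H2-Ab1, Ciita and Tap2. H2-DMb1 has a Y box core 62 bases before its start and no X box core as searched. H2-DMa has 2 windows, 1 with an X box core and 1 with a Y box core. These matches describe the letters of each window and not the binding of any factor.

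In GRCm38.p6, RefSeq places H2-Aa at chr17:34282744-34287823, H2-Ab1 at chr17:34263227-34269418, H2-Eb1 at chr17:34305867-34316674 and Tap1 at chr17:34187556-34197225, so these genes share 1 stretch of chromosome 17 with H2-DMa, H2-DMb1 and Tap2, whereas Ciita lies on chromosome 16 and B2m on chromosome 2. The exons that the probes read were not analysed here.

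The class II alpha chain gene H2-Aa (probe set 17343813) had a log2 value of 5.59 on the knockout high-fat array, 6.11 on the wild-type high-fat array, 5.88 on the knockout control array and 5.70 on the wild-type control array. H2-Ab1 (probe set 17336494), which encodes the beta chain that pairs with it, read 7.11, 7.59, 7.44 and 7.21 on the same arrays in the same order. H2-Eb1 (probe set 17336502), the E beta chain gene, read 5.27, 5.55, 5.52 and 5.41. All 3 chains therefore had their lowest value in knockout livers on high-fat diet and their highest in wild-type livers on high-fat diet, with the control-diet arrays in between and the knockout above the wild type.

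Ciita (probe set 17322842), the transactivator that these chains depend on, followed the same order of arrays with smaller steps: 4.06 in knockout on high-fat diet, 4.23 in wild type on high-fat diet, 4.21 in knockout on control diet and 4.13 in wild type on control diet. Its whole range over the 4 arrays was 0.18 log2, against 0.53 for H2-Aa, 0.48 for H2-Ab1 and 0.29 for H2-Eb1. No replicate gives the error of such a step.

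**Figure D1:**
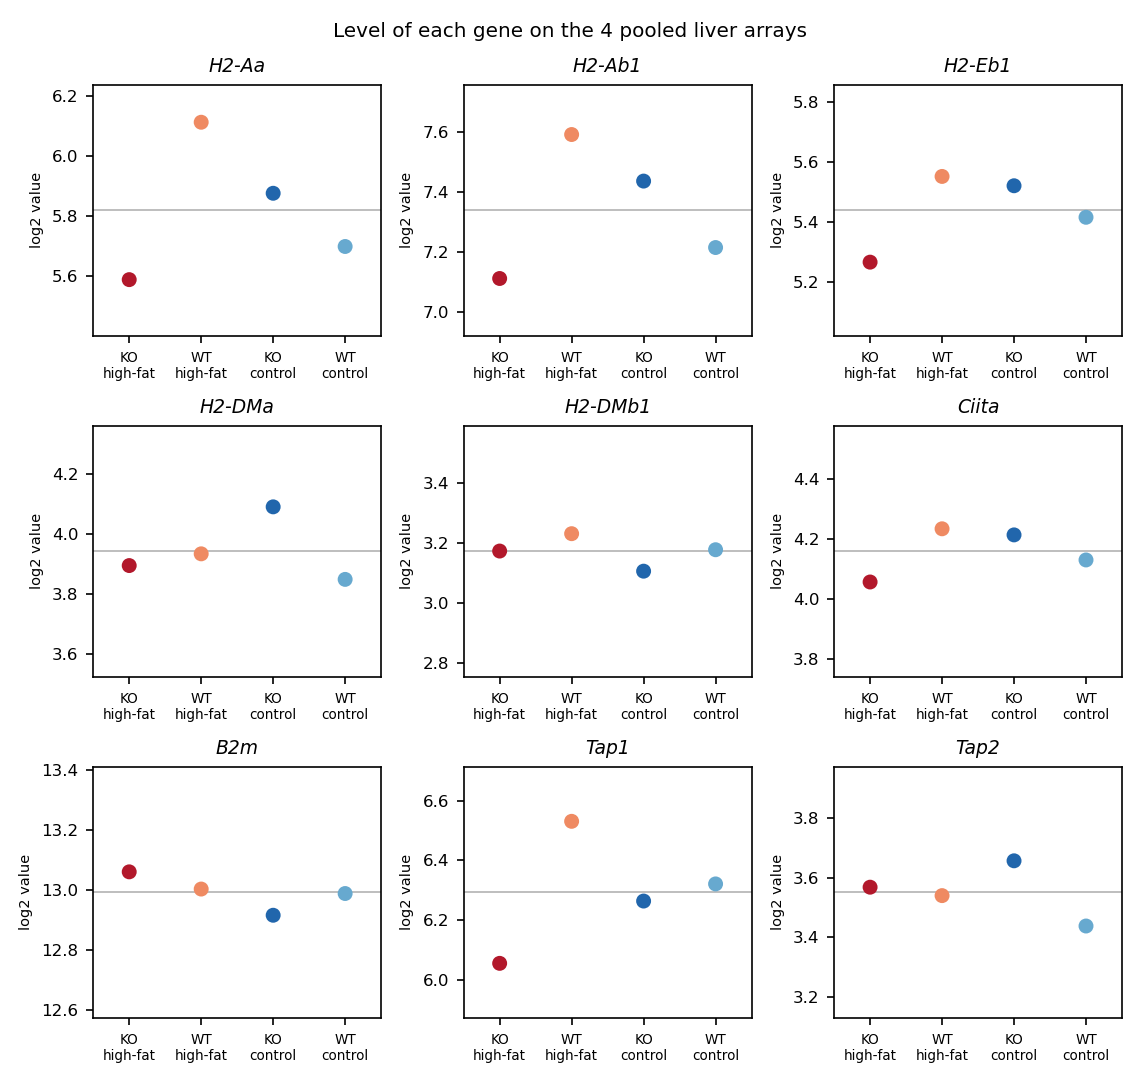
Log2 value (vertical axis, the same span in every panel) of each of the 9 genes on the 4 pooled arrays (horizontal axis), with the grey line at the gene's mean over the arrays; each point is 1 array and there are no error bars because no group has a replicate. H2-Aa, H2-Ab1, H2-Eb1, Ciita and Tap1 are lowest on the knockout high-fat array and highest on the wild-type high-fat array, while B2m spans 0.14.

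The chains of the DM molecule, which removes the invariant chain remnant from class II grooves, were dim. H2-DMa (probe set 17336407) had 3.89 in knockout and 3.93 in wild type on high-fat diet, and 4.09 in knockout and 3.85 in wild type on control diet. Its highest value was thus in knockout livers on control diet, and its high-fat arrays differed by 0.04. H2-DMb1 (probe set 17336422), below the filter, had 3.17, 3.23, 3.11 and 3.18 in that order of arrays, a span of 0.13. H2-DMb1 and its neighbour H2-DMb2 are close copies, so their probe sets may read both genes, and at this brightness no difference was detectable.

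Among the class I loading genes, Tap1 (probe set 17336432) behaved like the class II chains on high-fat diet. It had 6.06 in knockout and 6.53 in wild type on high-fat diet, and 6.26 in knockout and 6.32 in wild type on control diet, so the 2 control-diet arrays lay close together between the high-fat ones. Tap2 (probe set 17336458), which encodes the other chain of the transporter, was just above the filter with 3.57, 3.54, 3.66 and 3.44, and its highest array was knockout on control diet. B2m (probe set 17375373) had 13.06, 13.00, 12.92 and 12.99, close to the highest value on any array, 13.72, where differences can be compressed. The 2 chains of the transporter thus did not share an order of arrays, and B2m varied least of the 8 genes that passed the filter.

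Of these 8 genes, 5 (H2-Aa, H2-Ab1, H2-Eb1, Ciita and Tap1) had their lowest value in knockout and their highest in wild type on high-fat diet, an order found in 7.31% of all 13308 genes. This order was singled out after the values were seen. The count of 5 stayed the same after cyclic loess normalisation and after centring each array on its median gene.

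The first comparison set knockout against wild type on high-fat diet. H2-Aa was lower in knockout by a log2 difference of -0.53 (1.44-fold), H2-Ab1 by -0.48 (1.39-fold), Tap1 by -0.47 (1.39-fold) and H2-Eb1 by -0.29 (1.22-fold). Ciita was lower by -0.18, while H2-DMa (-0.04), Tap2 (0.03) and B2m (0.06) differed little. Counting genes at a difference of 1.2-fold or more, 4 of the 8 were lower in knockout and 0 higher, against 10.5% lower and 15.9% higher among all genes. The median of the 8 was -0.23, and that of all genes 0.02. Of all genes, 1.59% had a lower difference than H2-Aa, 2.16% than H2-Ab1 and 2.24% than Tap1.

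On control diet the genotype difference of H2-Aa, H2-Ab1, H2-Eb1 and Ciita was of the other sign and smaller, while that of H2-DMa was larger than on high-fat diet. Knockout was higher than wild type by 0.24 for H2-DMa, 0.22 for H2-Ab1, 0.18 for H2-Aa, 0.11 for H2-Eb1 and 0.08 for Ciita. Tap2 was higher by 0.22, and Tap1 and B2m were lower by -0.06 and -0.07. None of the 8 reached 1.2-fold in either direction, where 7.68% of all genes were higher and 10.2% lower. With each array centred on its median gene, 2 of the 8, H2-Ab1 and H2-DMa, passed 1.2-fold. No share of all genes is given for the centred arrays.

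**Figure D2:**
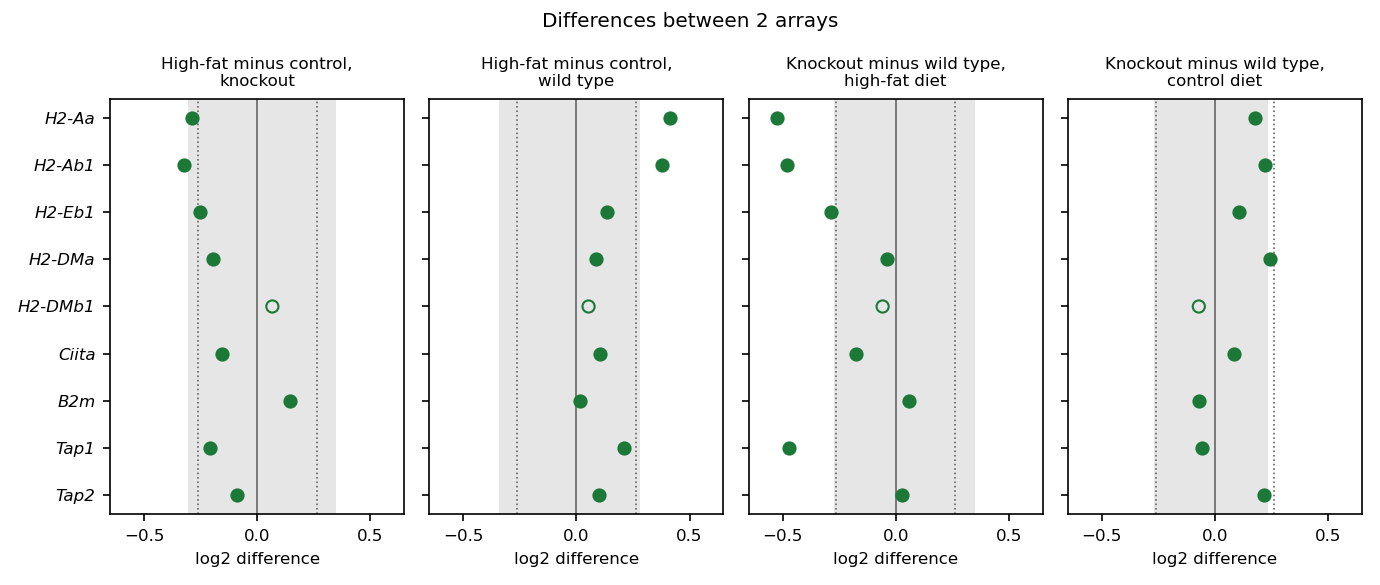
Log2 difference between 2 arrays (horizontal axis) for each gene (rows) in 4 comparisons (panels); dotted lines mark 1.2-fold, the grey band runs between the 0.1 and 0.9 quantiles of all 13308 genes, and the open circle is the dim gene H2-DMb1. On high-fat diet H2-Aa, H2-Ab1, H2-Eb1 and Tap1 lie left of the band, and H2-Aa and H2-Ab1 lie right of it for diet in wild type.

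The second comparison set high-fat against control diet within each genotype. In knockout livers, 7 of the 8 genes were lower on high-fat diet, H2-Ab1 by -0.32 (1.25-fold), H2-Aa by -0.29 (1.22-fold) and H2-Eb1 by -0.25, followed by Tap1 (-0.21), H2-DMa (-0.20), Ciita (-0.16) and Tap2 (-0.09), and B2m was higher by 0.14. At 1.2-fold, 2 of the 8 were lower and 0 higher, against 12.7% lower and 15.5% higher among all genes. In wild-type livers all 8 were higher on high-fat diet, H2-Aa by 0.41 (1.33-fold), H2-Ab1 by 0.38 (1.30-fold), Tap1 by 0.21, H2-Eb1 by 0.14 and the others by 0.10 or less. There 2 of the 8 were higher by 1.2-fold and 0 lower, against 10.8% higher and 15.3% lower among all genes. The medians of the 8 were -0.20 in knockout and 0.12 in wild type, where all genes had medians of 0.01 and -0.03.

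Against control diet, 7 of the 8 genes were thus lower on high-fat diet in knockout and higher on it in wild type, as were 18.7% of all genes, a count by sign alone that was singled out after the values were seen. The diet difference in knockout minus that in wild type was -0.70 for H2-Aa, -0.70 for H2-Ab1, -0.42 for Tap1, -0.39 for H2-Eb1, -0.28 for H2-DMa, -0.26 for Ciita, -0.19 for Tap2 and 0.13 for B2m. This value sums 4 arrays and spreads more widely: 15.1% of all genes were lower by 1.2-fold or more and 22.8% higher, while 5 of the 8 were lower and 0 higher. Of all genes, 1.75% had a lower value than H2-Aa and 1.77% than H2-Ab1. Because the genotype and diet differences are made from the same 4 arrays, they are different views of 1 pattern and do not support each other.

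**Figure D3:**
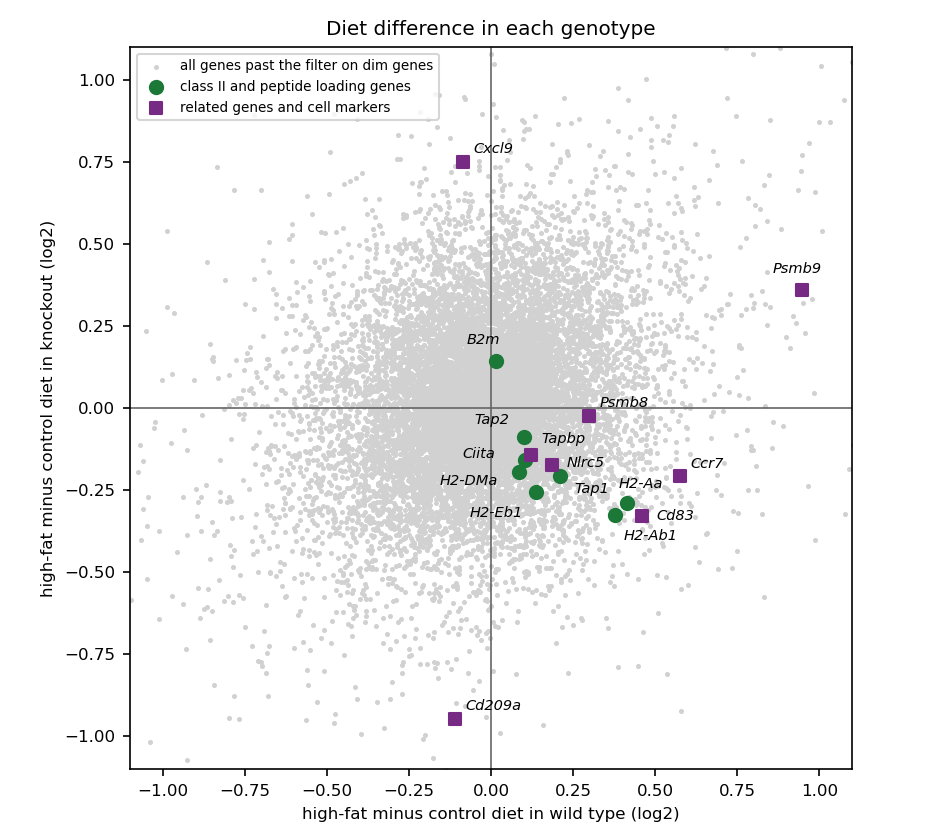
High-fat minus control diet difference (log2) in wild type (horizontal axis) and knockout (vertical axis); the 2 axes share no array, grey points are genes past the filter, and 154 genes beyond 1.1 on either axis are not drawn. H2-Aa and H2-Ab1 lie at lower right, higher in wild type and lower in knockout, beside Cd83, and B2m lies above the horizontal line.

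An overall diet effect and an overall genotype effect were tested with limma across all 13308 genes in an additive fit to the 4 arrays, whose only residual degree of freedom is the diet by genotype difference just given. With Benjamini-Hochberg adjustment at 0.05, limma called 0 genes for diet (0%) and 0 for genotype (0%), with 1238 and 567 genes at an unadjusted p under 0.05. None of the 8 genes was called, and their smallest adjusted p in limma was 0.903 for diet and 0.975 for genotype. For H2-Aa the effect was 0.06 (SE 0.19) for diet and -0.17 (SE 0.19) for genotype, and for Tap1 it was 0.00051 (SE 0.15) for diet and -0.27 (SE 0.15) for genotype. A gene whose response to diet turns round between genotypes has a large error in this fit, so it does not test the pattern described above, and no test of that pattern was possible with 1 array a group.

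The remaining genes of the class II pathway were read from lists, whose counts of genes lower or higher in knockout on high-fat diet stand against 10.5% lower and 15.9% higher among all genes. All 5 other class II genes (H2-Oa, H2-Ob, H2-Eb2, H2-DMb2 and H2-Ea) were below the filter. H2-Ea lay between 3.01 and 3.23 on every array. H2-Ob, a chain of the DO molecule that restrains DM, had 3.35 in knockout and 3.62 in wild type on high-fat diet, and 3.42 in knockout and 3.23 in wild type on control diet; values this dim are near the array median of 3.53 to 3.56.

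Of the 7 genes of the complex that assembles on class II promoters, 0 had the order of arrays described above, which 7.31% of all genes had. Nfya, a subunit of the factor that binds the Y box, had 6.31 in knockout and 5.90 in wild type on high-fat diet, a difference of 0.41 opposite to that of H2-Aa. Rfxap, a subunit of the factor that binds the X box, had 5.43 and 5.27 on high-fat diet, and 5.17 in knockout and 5.64 in wild type on control diet. Nfyb was lower in knockout on control diet by -0.23 and higher on high-fat diet by 0.22, and Nfyc was within 0.07 on both diets. On high-fat diet 1 of the 7 genes was higher in knockout by 1.2-fold and 0 were lower, near the 15.9% and 10.5% of all genes.

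Of 8 measured genes that process antigen or class II molecules in endosomes, 1, Cd83, was lower in knockout on high-fat diet by 1.2-fold and 0 were higher, a count near the 10.5% of all genes that were lower. Cd83, a surface protein of activated dendritic cells and B cells that slows class II turnover, had 3.94 in knockout and 4.42 in wild type on high-fat diet, and 4.27 in knockout and 3.97 in wild type on control diet. Its diet difference of -0.33 in knockout and 0.46 in wild type was close to those of H2-Aa and H2-Ab1. The lysosomal proteases differed the other way or little: Ctss, which cleaves the invariant chain, had 8.36 in knockout and 8.19 in wild type on high-fat diet, Lgmn had 8.41 and 8.23, and Ctsd had 9.48 and 9.42. These 3 were lower on high-fat than on control diet in both genotypes, by -0.13 to -0.16 in knockout and by -0.21 to -0.37 in wild type.

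On the class I side, 12 genes of peptide loading and the immunoproteasome were read. Of these, 2 (Tapbp and Nlrc5) had the lowest and highest arrays of the class II chains, against 7.31% of all genes. Tapbp encodes tapasin, which bridges the transporter to class I molecules, and had 7.06 in knockout and 7.35 in wild type on high-fat diet, and 7.21 in knockout and 7.23 in wild type on control diet. Nlrc5, the transactivator of class I genes, had 4.46 and 4.80 on high-fat diet, and 4.63 and 4.61 on control diet. These 2 were the only genes of the 12 that were lower in knockout by 1.2-fold on high-fat diet, and they are named for that count after their values were seen.

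The immunoproteasome genes next to the transporter genes differed in another way. Psmb9 had 5.84 in knockout and 5.93 in wild type on high-fat diet, and 5.48 in knockout and 4.98 in wild type on control diet. Psmb8 had 6.94 and 6.85 on high-fat diet, and 6.96 and 6.55 on control diet. Both were thus lowest in wild-type livers on control diet, with the 2 high-fat arrays within 0.09 of each other. Psme2, a subunit of the proteasome activator, was higher in knockout on both diets, by 0.79 on high-fat and 0.68 on control diet, and the peptide trimming gene Erap1 by 0.14 and 0.22.

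Of 7 class I heavy chain genes with a probe set of their own, 0 had the order of the class II chains, against 7.31% of all genes. H2-Q4 had 5.32 in knockout and 5.10 in wild type on high-fat diet, and 4.82 in knockout and 5.77 in wild type on control diet, and H2-Q1 had 4.30, 4.19, 4.59 and 5.31 on these arrays. H2-Q10, a secreted class I gene of liver, had 8.26, 8.41, 8.76 and 8.43, and H2-T24 was lower in knockout on both diets, by -0.40 and -0.51. Some class I genes are close copies that can share probe sequence, so some of these values may mix genes.

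The list for interferon gamma, the inducer of Ciita, holds its receptor chains, kinases and transcription factors besides genes it induces. Of its 14 genes past the filter, 6 were higher in knockout on high-fat diet by 1.2-fold and 0 lower, against 15.9% higher and 10.5% lower among all genes. Tap1, Tapbp and Nlrc5, which interferon gamma also induces, stand outside this list and were lower in knockout on that diet, by -0.47, -0.29 and -0.34. They are named here after their values were seen. Of the 12 genes of class I loading and the immunoproteasome, 2 (Tapbp and Nlrc5) were lower by 1.2-fold on that diet. In the same list 1 was higher, Psme2 by 0.79, against the same shares of all genes. Psmb8 (0.09), Psmb9 (-0.08), Psmb10 (0.11) and Erap1 (0.14) of that list differed by less than 1.2-fold. Cxcl9, a T cell attracting chemokine, had 8.03 in knockout and 7.23 in wild type on high-fat diet, and 7.28 in knockout and 7.31 in wild type on control diet. The interferon-inducible GTPase gene Igtp had 6.33 and 5.67 on high-fat diet, and 6.24 and 6.11 on control diet. Gbp7 was higher in knockout by 0.42 on high-fat and 0.82 on control diet, and Iigp1 by 0.29 on both. The gene for interferon gamma itself, Ifng, was below the filter, with 3.20, 3.40, 3.54 and 3.31 on the 4 arrays. Of 5 costimulation genes past the filter, 1 was higher in knockout on high-fat diet by 1.2-fold: Cd274, an inhibitory ligand, had 3.77 in knockout and 3.21 in wild type on that diet.

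Markers of the cells that carry class II were read beside these values. In whole liver RNA, fewer cells of a type and less RNA per cell cannot be told apart. Of 9 dendritic cell markers, 4 were below the filter, among them the lineage markers Flt3 and Xcr1. The summed linear level of the 9 was 168 in knockout and 221 in wild type on high-fat diet, and 248 in knockout and 234 in wild type on control diet. The differences between these sums came mostly from 1 gene: without Cd209a the other 8 markers summed to 89.4 and 91.9 on high-fat diet, and 95.9 and 94.2 on control diet. Cd209a is a lectin of monocyte-derived dendritic cells, with 6.30 in knockout and 7.01 in wild type on high-fat diet, and 7.24 in knockout and 7.12 in wild type on control diet. Ccr7, a chemokine receptor of migrating dendritic cells and lymphocytes, had 3.77 and 4.18 on high-fat diet, and 3.98 and 3.61 on control diet. On high-fat diet 2 of the 5 markers past the filter, Cd209a and Ccr7, were lower in knockout by 1.2-fold and 0 were higher, against 10.5% and 15.9% of all genes. The other 3 differed by -0.14 (Itgax), -0.11 (Zbtb46) and 0.15 (Siglech). Of the 5, Itgax alone had the order of arrays of the class II chains, against 7.31% of all genes. Cd209a was lower on the wild-type high-fat array than on either control array, and Ccr7 was lowest in wild type on control diet. The part of these cells in the class II differences was not tested.

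Of 9 B cell markers, 4 were below the filter, among them Ms4a1, Cd79a and Pax5, which define the lineage. The summed level was 330 in knockout and 415 in wild type on high-fat diet, and 264 in knockout and 306 in wild type on control diet, and it rests on Ighm, the mu heavy chain gene (7.89, 8.31, 7.46 and 7.74), without which the other 8 summed to between 88.5 and 96.4. That order differs from the class II chains, since wild type was above knockout on both diets. T and NK cell markers were dim, with 5 of 9 below the filter and sums of 97.4, 112, 99.7 and 104. That sum was lowest and highest on the same arrays as the class II chains. Of 4 markers past the filter, 2 (Cd3g and Nkg7) had these same lowest and highest arrays, against 7.31% of all genes. Both were lower in knockout by 1.2-fold on high-fat diet and 0 were higher, against 10.5% and 15.9% of all genes. Cd3g had 3.47 in knockout and 3.89 in wild type on high-fat diet, and 3.55 and 3.51 on control diet. Nkg7 had 3.94, 4.23, 4.01 and 4.10. Their part in the class II differences was not tested.

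The marker sums of macrophages and sinusoidal endothelium had another order of arrays. Of 10 Kupffer cell and macrophage markers, 1 (Cd5l) was lower in knockout on high-fat diet by 1.2-fold and 3 were higher, against 10.5% and 15.9% of all genes. Their sum was 1791 in knockout and 1780 in wild type on high-fat diet, and 1926 in knockout and 2007 in wild type on control diet. Cd5l had 7.46 in knockout and 7.93 in wild type on high-fat diet, and 7.79 and 7.83 on control diet. It was the 1 marker of the 10 with the lowest and highest arrays of the class II chains, against 7.31% of all genes. Clec4f had the signs of H2-Aa, lower in knockout by -0.11 on high-fat diet and higher by 0.12 on control diet. Marco was higher in knockout by 0.31 on high-fat diet and lower by -0.81 on control diet, the reverse of H2-Aa. The 8 sinusoidal endothelial markers summed to 2491 and 2332 on high-fat diet, and 2483 and 2457 on control diet. Hepatocyte markers summed to between 44496 and 46011.

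**Figure D4:**
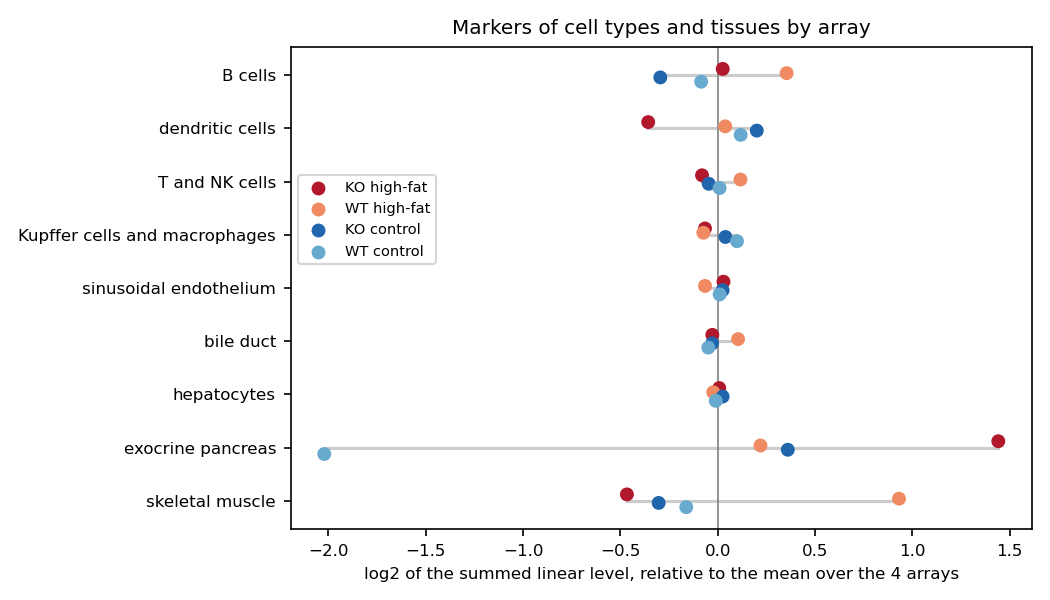
Log2 of the summed linear level of each marker list (rows), relative to its mean over the 4 arrays (horizontal axis); each point is 1 array. The dendritic cell list is lowest on the knockout high-fat array, mostly through Cd209a (8 other markers sum to between 89.4 and 95.9), the skeletal muscle list is high on the wild-type high-fat array alone, and the pancreas list spreads most, highest on the knockout high-fat array and lowest on the wild-type control array.

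Other tissues also differed between the arrays. Skeletal muscle markers summed to 89.7 in knockout and 236 in wild type on high-fat diet. On control diet they summed to 100.5 in knockout and 111 in wild type. The wild-type high-fat array, where the class II chains were highest, thus also held most muscle RNA. The knockout high-fat array, where the chains were lowest, had the smallest sum, though near that of the knockout control array. Its muscle markers were dim, between 2.80 and 4.08, where the filter value is 3.47. Of 6 muscle markers past the filter, 4 (Acta1, Ckm, Ttn and Tnnt3) were lowest in knockout and highest in wild type on high-fat diet. That order was found in 7.31% of all genes. Mb was lowest in wild type on control diet and Tnni2 in knockout on control diet. On high-fat diet 5 of the 6 were lower in knockout by 1.2-fold and 0 higher, against 10.5% and 15.9% of all genes. Exocrine pancreas markers summed to 5446 and 2335 on high-fat diet, and 2573 and 494 on control diet. Their part in the class II values was not tested. Xist was between 3.07 and 3.23 on all arrays. Myd88 had 6.23 in knockout and 6.44 in wild type on high-fat diet, and 5.91 and 6.10 on control diet, a small difference that checks nothing about deletion in hepatocytes where probe positions were not analysed here.

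The genes with the 4-array profile nearest to the mean profile of H2-Aa, H2-Ab1, H2-Eb1, H2-DMa and the dim H2-DMb1, by Euclidean distance between profiles centred on their own means, were Stk35os1 (0.0101), Crym (0.0170), Cacng6 (0.0206), Rexo1 (0.0248) and Cabp1 (0.0250). They were chosen from 13300 genes by only 4 points each, so likeness here is a description. Crym, for example, had 3.87 in knockout and 4.16 in wild type on high-fat diet, and 4.07 in knockout and 3.95 in wild type on control diet. Stk35os1, Cacng6 and Cabp1 were dimmer, between 3.36 and 3.67 on every array, near the filter value of 3.47.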

How the data were processed

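The deposited values are log2 signals, 1 per probe set; the submitters' processing notes name RMA (robust multi-array average) and the Affymetrix Expression Console as tools. No version of these tools was given. RMA equalises the distribution of values between arrays and compresses differences of dim probe sets. Of 41345 probe sets, 23521 had 1 symbol in the platform annotation, 1814 had several and 16010 none; the last 2 kinds were not named. Each of 22180 genes was read from its probe set with the highest mean, and 13308 at or above the 40th percentile were kept.

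Differences are subtractions of log2 values of single arrays, with no p-value; folds of 1.2 or more were counted. Limma 3.58.1 under R 4.3.3 gave the additive genotype and diet effects (lmFit, eBayes, Benjamini-Hochberg at 0.05 over all genes) and the fit was tested on simulated data. The simulated diet effect was far larger than any of the listed genes had, with equal noise for every gene and no diet by genotype difference. That test therefore does not show whether effects of their size would be called. Python 3.11.15, pandas 2.3.3, NumPy 2.4.6 and matplotlib 3.10.9 were used otherwise. The p-values take the diet by genotype difference as their error, moderated by eBayes over all genes. They measure neither spread between replicate arrays nor spread between mice.

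The members and lists were chosen with earlier results of these data known. The text names all members, up to 4 genes of each list with the largest mean absolute difference over the 4 two-array differences, defining markers that are dim, the 5 genes of nearest profile, and Myd88; other list genes are named as examples of a count or for their role, and were chosen after their values were seen. Promoter windows are RefSeq sequence of GRCm38.p6. Alternatives were cyclic loess, centring on the median gene, the mean of all probe sets of a symbol, other filters, a trended prior and other folds. Summed levels add linear values (2 to the power of the log2 value) of a list's measured genes, in arbitrary units.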

Additional observations from a re-analysis of the deposited data

Results flagged for a closer look

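For H2-Aa and H2-Ab1 the diet difference was of opposite sign in the 2 genotypes and past 1.2-fold in both. The share of all genes with such a pair of differences is not given. H2-Aa differed by -0.29 in knockout and 0.41 in wild type, and the difference between these was -0.70. H2-Ab1 differed by -0.32 in knockout and 0.38 in wild type, and the difference between these was also -0.70. With 1 array a group, neither difference between genotypes was tested.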

How the results depend on the processing

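Limma's counts over all genes depended on the normalisation: for diet it called 70 genes (41 higher, 29 lower) after cyclic loess and 5 after centring on the median gene, against 0 as deposited, and for genotype 3 after loess. None of the class II and peptide loading genes was called under any of the 6 alternatives of the fit. Counting at 1.5-fold left 0 of the 8 genes lower for diet in knockout, 0 higher for diet in wild type, 0 lower for genotype on high-fat diet and 2 lower (H2-Aa and H2-Ab1) for the diet by genotype difference; at 2-fold all 4 counts were 0. Centring raised the count higher in knockout on control diet to 2, against 0 as deposited. The count lower for diet in knockout was 3 after loess and 3 after centring, against 2. That higher for diet in wild type was 3 after loess and 2 after centring, against 2. For the diet by genotype difference 4 were lower after loess and 6 after centring, against 5. The count lower in knockout on high-fat diet stayed at 4 after both. No share of all genes is given at 1.5-fold, at 2-fold, after loess or after centring, so these counts cannot be set against all genes. Of 135 recomputed differences of single members 0 past 1.2-fold changed sign and 1 moved by more than 0.1, that of Tap1 for diet by genotype, which was -0.52 after loess. Each listed gene has a single probe set, so averaging probe sets could change no member. The 135 include these averages, which equal the deposited values by construction. Adding H2-DMb1 (chosen after seeing the data, as were the alternatives for the order of arrays, for the signs of the diet differences and for the marker sums) changed no count. No array could be left out, since each group has 1, and no paired analysis was possible because no group has a second replicate. Signal over background is unknown, which limits H2-DMa, H2-DMb1, Ciita and Tap2 most.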
